A study of Tetranychus urticae with 24 samples.

Results

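Piperonyl butoxide (PBO) was compared with its carrier across every expressed gene of adult female two-spotted spider mites, *Tetranychus urticae*. The comparison set the 4 libraries of mites sprayed with 1000 ppm PBO in formulation against the 4 libraries of mites sprayed with formulation alone (FORM), 8 of the 24 RNA-seq libraries of the series. All mites came from JP-R, a strain kept on bean in the laboratory that withstands cyenopyrafen and cyflumetofen, acaricides acting on mitochondrial complex II, and were females 3 to 5 days into adulthood. The formulation, which both groups received, was N,N-dimethylformamide and emulsifier W at a weight ratio of 3:1 in a 100-fold dilution with water. Only mites alive at 24 h were pooled, about 100 for each RNA extraction, so a library averaged whole bodies of survivors, and fewer cells of a type and less RNA per cell cannot be told apart.

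PBO is a methylenedioxyphenyl compound that binds the active site of cytochrome P450 monooxygenases (P450s), the enzymes that oxidise many insecticides and acaricides in the first phase of detoxification. In the second phase, UDP-glycosyltransferases (UGTs) attach a sugar, and glutathione S-transferases (GSTs) attach glutathione, to the product, and transporters then carry it out of the cell. Spider mites in addition hold intradiol ring-cleavage dioxygenases, which open the ring of aromatic compounds. PBO is applied as a synergist because blocking P450s raises the toxicity of a compound that they would otherwise break down.

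The 8 libraries held 14573720 to 17633311 counted reads each. The biological coefficient of variation between replicates, estimated over all 24 libraries, was 9.80%. Of 19087 genes in the annotation, 12736 had enough reads to be tested, and 1831 had no read in any library. A yolk gene and a germline gene were read in each library. The vitellogenin gene tetur20g01230, which codes for a yolk protein precursor, stood at 87.4 to 169 CPM, and the germline helicase gene vasa (tetur10g01960) at 87.1 to 164 CPM. Levels are given as CPM, reads of a gene per 1e+06 counted reads after scaling of library sizes, fold changes as the log2 of PBO over FORM with their standard error, and a gene was called at a Benjamini-Hochberg adjusted p below 0.05 together with an absolute fold change of at least 1.5.

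At those thresholds 332 genes were called, 2.61% of the genes tested. Higher levels with PBO were called for 129 genes (1.01%) and lower levels for 203 genes (1.59%), while the median log2 fold change over all genes tested was 0.000766. Without PBO replicate 1 the counts were 99 higher and 113 lower, 212 in all. A test against a fold change of 1.5 left 16 genes higher and 3 lower. The changes were mostly small, with a median fold change of 1.80 among the genes that rose and of -1.77 among those that fell. A change of at least 3-fold was seen for 8 genes that rose and 18 that fell. The 4 PBO libraries lay wholly above or wholly below the 4 FORM libraries for 114 of the genes that rose and 190 of those that fell. The same separation was seen for 2262 genes over the whole set, 17.8%.

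CPM are not corrected for gene length, so levels of different genes are compared here only as read numbers. By that measure the genes that fell had fewer reads, with a median in FORM of 4.45 CPM against 7.94 CPM for the genes that rose. Among the 1246 genes with a mean under 1 CPM, 41 were called lower and 7 higher, whereas among the 2195 genes with a mean over 100 CPM, 11 were called lower and 16 higher. The median log2 fold change also moved with the level, from -0.16 under 1 CPM to 0.03 over 100 CPM, and the part of that shift in the calls of weakly expressed genes was not tested. The plot of fold change against level shows both features.

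**Figure D1:**
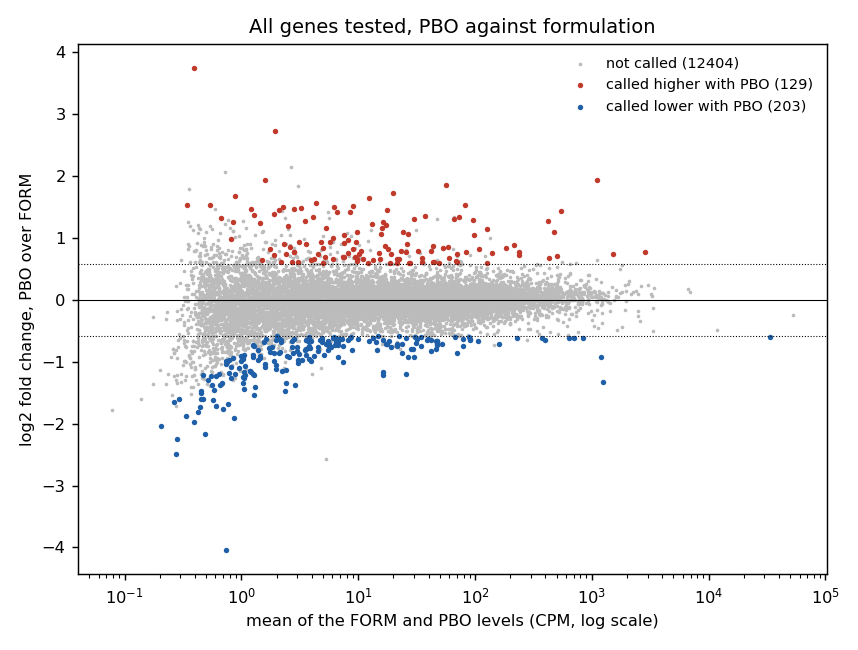
Log2 fold change of PBO over FORM (vertical axis) against the mean level of both groups in CPM (horizontal log axis) for the 12736 genes tested, with dotted lines at a fold change of 1.5. The 129 genes called higher spread over the whole range of levels, and the 203 called lower crowd towards the left.

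The study's tables and text describe 369 of the genes, all of which were expressed well enough to be tested, and 178 of the 332 called genes are among them. Genes whose description names a family or function were sorted into lists, which hold 67 of the genes that rose and 36 of those that fell. Since most were described because the study called them in these same libraries, the counts below describe the lists and are no independent evidence of a direction.

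Of 19 listed P450 genes, which code for the enzymes that PBO inhibits, 13 were called higher and none lower, with log2 fold changes from -1.11 to 1.94 and a median of 0.78. Over all genes tested 1.01% were called higher. The study itself had called 14 of the 19 with PBO, and 12 of those 14 were called higher here. Of the 5 others 1 was called higher, and their median log2 fold change was 0.55. The summed level of the 19 genes went from 4545 to 5067 CPM in the FORM libraries to 9213 to 10037 CPM in the PBO libraries. When single libraries were left out in turn, between 11 and 15 members were called. The plot of P450 levels by library gives all 19.

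CYP392A11 (tetur03g00970), which codes for an enzyme known to metabolise cyenopyrafen, rose the most among the P450s. Its level was 420, 547, 388 and 483 CPM in the FORM libraries and 1690, 1761, 1535 and 2044 CPM in the PBO libraries. The lowest PBO library lay far above the highest FORM library, and the log2 fold change was 1.94 ± 0.11 (SE, n = 4 a group, adjusted p = 5.14e-11). Unsprayed mites held 414 ± 55.7 CPM (SD, n = 4).

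CYP392A12 (tetur03g00830), whose ID lies near it on the same scaffold, stood at 226, 280, 221 and 269 CPM with formulation and at 612, 597, 557 and 640 CPM with PBO. The groups did not overlap, and the log2 fold change was 1.27 ± 0.12 (adjusted p = 1.32e-06). The probable P450 pseudogene tetur03g00800, another ID of that stretch, went from a mean of 2.35 to 5.94 CPM (log2 fold change 1.34 ± 0.20, adjusted p = 0.000207).

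The member with the most reads, CYP392E8 (tetur27g00350), changed by a smaller fold. It measured 2061, 2129, 2051 and 2162 CPM with formulation and 3527, 3582, 3557 and 3774 CPM with PBO, values that hardly varied within a group. The log2 fold change was 0.78 ± 0.09 (adjusted p = 8.4e-06). CYP392E6 (tetur27g00330), a close neighbour of it by ID, was at 174 to 188 CPM against 296 to 303 CPM (log2 fold change 0.72 ± 0.09, adjusted p = 5.81e-05). CYP392A16 (tetur06g04520), whose product is known to break down abamectin, was at 1040, 1141, 1094 and 1255 CPM with formulation and 1840, 1929, 1952 and 1892 CPM with PBO (log2 fold change 0.75 ± 0.11, adjusted p = 0.000109).

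P450 genes outside the CYP392 family changed less firmly. CYP385C4 (tetur11g05520) went from 6.48 ± 0.27 to 11.5 ± 2.35 CPM (SD, n = 4), with PBO replicates 1 and 4 the highest. Its adjusted p was 0.0207 and lay between 0.0511 and 0.0718 without PBO replicate 1, PBO replicate 4, FORM replicate 2 or FORM replicate 3, and at 0.0611 against unsprayed mites (log2 fold change 0.58). CYP385C3 (tetur11g05540) went from 3.26 to 5.15 CPM (adjusted p = 0.0291) and was not called without PBO replicate 4 or any one of FORM replicates 2, 3 and 4, with an adjusted p of up to 0.12. The 6 members not called comprised CYP385C4v2, CYP385C3v2, CYP392B3, CYP392A3 and the pseudogenes tetur03g05060 and tetur21g00560. The last of these stood at 2.18 to 4.40 CPM in FORM and at 1.01 to 1.87 CPM in PBO (adjusted p = 0.0943), below FORM in all 4 libraries, and was called lower with DESeq2.

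**Figure D2:**
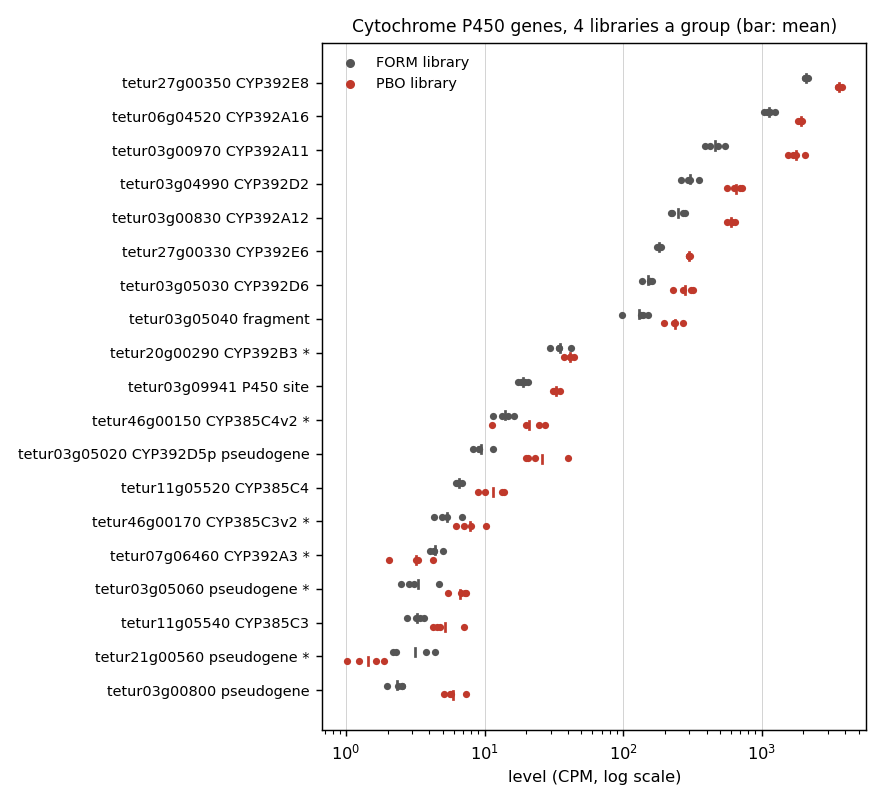
Level of each of the 19 listed P450 genes in CPM (horizontal log axis), with 1 dot per library, FORM in grey and PBO in red, and a bar at each group mean; an asterisk marks the 6 genes that were not called. The 8 genes with the highest CPM show no overlap of the groups, among them CYP392A11 at 388 to 547 CPM against 1535 to 2044 CPM.

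Several of the genes that rose carry neighbouring IDs. Runs were taken as stretches of consecutive IDs with at least 3 genes called in 1 direction and no more than 2 others between them, and 5 runs were found, 4 higher and 1 lower, holding 19 called genes. The first lies on scaffold 3 and spans 6 IDs from tetur03g04990 to tetur03g05040. CYP392D2 (tetur03g04990) opened it with 262, 351, 294 and 306 CPM in FORM and 627, 562, 716 and 695 CPM in PBO (log2 fold change 1.10 ± 0.11, adjusted p = 3.93e-06). It was followed by the probable pseudogene CYP392D5p (tetur03g05020, 1.45 ± 0.24), CYP392D6 (tetur03g05030, 0.89 ± 0.17) and a P450 fragment (tetur03g05040, 0.85 ± 0.17), all called. The IDs tetur03g05000 and tetur03g05010 inside the run were not called, at 0.36 ± 0.14 and 0.12 ± 0.08. Because the members of such a run resemble each other, reads may have been divided between them in counting, and pseudogenes and fragments are the least certain.

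Another run, on scaffold 6, consisted of 4 short-chain dehydrogenase/reductase (SDR) genes, which code for enzymes that reduce or oxidise alcohols and ketones. The strongest, tetur06g04970, stood at 14.9, 33.7, 22.4 and 27.2 CPM with formulation and at 88.0, 55.1, 110 and 101 CPM with PBO. The groups did not overlap although PBO replicate 2 was the lowest of its group, and the log2 fold change was 1.85 ± 0.27 (adjusted p = 0.000342). This gene also differed in the direct comparison with mites treated with the esterase inhibitor DEF, where it reached 37.1 ± 6.00 CPM (SD, n = 4, log2 difference 1.25 with PBO higher, adjusted p = 0.0236).

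The other members of the run rose as well, namely tetur06g04940 (log2 fold change 1.16 ± 0.22), tetur06g04960 (1.42 ± 0.30) and tetur06g04980 (1.56 ± 0.22). PBO replicate 2 was the lowest of the PBO libraries for each of them. Another SDR gene, tetur28g01140 on scaffold 28, went from 54.2, 38.0, 35.1 and 39.4 CPM to 130, 101, 127 and 126 CPM (log2 fold change 1.54 ± 0.18, adjusted p = 5.14e-05), with the same library lowest. Over the list of 10 SDR genes 5 were called higher and 5 were not called, the latter between -0.21 and 0.18. The 5 called higher are those that the study itself had called with PBO, so the split follows how the list was drawn. The number called stayed at 5 with any single PBO or FORM library left out.

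Another run lies on scaffold 22 and held 5 called UGT genes among 7 IDs, teturUGT65 to teturUGT69. The clearest was teturUGT68 (tetur22g00480), at 2.76, 1.85, 1.77 and 1.82 CPM with formulation and 5.76, 5.17, 4.30 and 4.82 CPM with PBO. FORM replicate 1 stood above the rest of its group without reaching the PBO libraries, and the log2 fold change was 1.28 ± 0.17 (adjusted p = 8.43e-05).

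For this run the choice of control changed calls. In unsprayed mites teturUGT65 (tetur22g00420) was at 7.72 ± 1.89 CPM and teturUGT67 (tetur22g00460) at 4.93 ± 0.49 CPM (SD, n = 4). With formulation they were at 5.25 ± 1.76 and 3.31 ± 0.82 CPM, differences that were not called (adjusted p = 0.846 and 0.617). Both genes were called higher with PBO against FORM, at log2 fold changes of 0.92 ± 0.22 and 0.94 ± 0.19. Against unsprayed mites neither was called, at 0.38 for both (adjusted p = 0.214 and 0.157), and teturUGT69 (tetur22g00510) was not called either, at 0.47 (adjusted p = 0.205). The call for teturUGT69 against FORM (adjusted p = 0.0454) was lost without any one library except PBO replicate 3, and that for teturUGT66 (tetur22g00440) without PBO replicate 1, where its log2 fold change was 0.57.

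**Figure D3:**
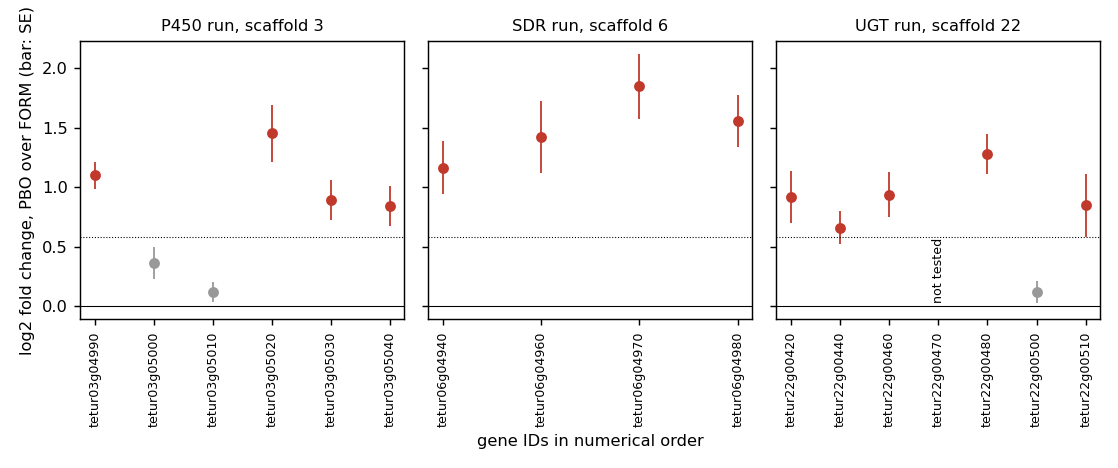
Log2 fold change of PBO over FORM (vertical axis, bars give the SE) for the genes of 3 runs in the numerical order of their IDs (horizontal axis), with genes called higher in red and a dotted line at a fold change of 1.5. All 4 SDR genes lie above the line, while the P450 and UGT runs enclose IDs close to 0.

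Other UGT genes rose apart from that run. Of 14 listed UGT genes 8 were called higher and none lower, with a median log2 fold change of 0.72, and between 6 (without PBO replicate 1) and 9 when single libraries were left out. Over all genes tested 1.01% were called higher. The study itself had called 7 of the 14 with PBO, and all 7 were called here. Of the 7 others only teturUGT69 was called, and their median log2 fold change was 0.36. The gene teturUGT11 (tetur02g09850) measured 168, 168, 163 and 204 CPM in FORM and 296, 310, 302 and 293 CPM in PBO (log2 fold change 0.77 ± 0.14, adjusted p = 0.00217). Its neighbour by ID teturUGT10 (tetur02g09830) went from 24.0 ± 2.97 to 41.2 ± 1.97 CPM, and teturUGT63 (tetur22g00360) from 4.99 ± 1.01 to 10.3 ± 1.27 CPM. The 6 UGT genes not called had log2 fold changes of 0.24 to 0.55.

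Among GST genes the response was uniform in direction but small. TuGSTd14 (tetur29g00220), of the delta class, stood at 33.9, 40.9, 38.9 and 39.7 CPM with formulation and at 96.7, 66.9, 116 and 98.5 CPM with PBO. The lowest PBO library, replicate 2, still exceeded every FORM library, and the log2 fold change was 1.30 ± 0.13 (adjusted p = 3.93e-06). A mu-class gene, tetur05g05190, moved from 98.0 to 110 CPM in FORM to 173 to 176 CPM in PBO, a spread of 1.55 CPM (SD, n = 4) around 175 CPM (log2 fold change 0.76 ± 0.12, adjusted p = 0.000487). DEF-treated mites held 107 ± 3.25 CPM of it, and the direct difference of PBO over DEF was 0.71 on the log2 scale (adjusted p = 0.00466).

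The remaining 4 GST genes, all of the delta class, had adjusted p values of 0.000109 to 0.014 with log2 fold changes of 0.35 to 0.53, under the 1.5-fold limit. For tetur26g01490 the FORM libraries held 393 to 435 CPM and the PBO libraries 524 to 652 CPM. All 6 listed GST genes had PBO libraries wholly above the FORM libraries, as did 1067 of the 12736 genes tested. The 2 called higher are those that the study itself had called with PBO. When unsprayed mites took the place of FORM, 4 of the 6 were called higher, as were 332 of all genes tested.

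Carboxyl/cholinesterases (CCEs) hydrolyse ester bonds, another first-phase reaction. TuCCE07 (tetur01g10810) rose from 4.62 ± 0.65 to 12.4 ± 4.48 CPM (log2 fold change 1.43 ± 0.29, adjusted p = 0.00412), with PBO libraries at 10.5, 7.02, 15.2 and 16.9 CPM. The gene tetur04g06770 was called (adjusted p = 0.0416) but not without any one of 7 of the 8 libraries, the exception being FORM replicate 4, and the adjusted p then reached 0.12. It was also lost with no filter on low counts, where 1 gene of the list was called, while 4 were called in a fit of the 8 libraries alone. For TuCCE06 (tetur01g10800), at 0.63 ± 0.13 against 1.29 ± 0.41 CPM, the adjusted p was 0.0633. All 5 listed CCE genes were above FORM in every PBO library, as were 1067 of the 12736 genes tested, and 2 of the 5 were called. The study itself had called 3 of the 5 with PBO, among them the 2 called here.

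Of 4 intradiol dioxygenase genes 2 rose, the 2 that the study itself had called with PBO. The gene tetur13g04550 was at 244, 275, 294 and 359 CPM in FORM and 706, 796, 757 and 900 CPM in PBO (log2 fold change 1.43 ± 0.20, adjusted p = 0.000207). The gene tetur28g01250 was at 7.70, 9.81, 7.44 and 12.2 CPM in FORM and 27.6, 24.1, 27.4 and 42.9 CPM in PBO (1.72 ± 0.32, adjusted p = 0.00284). For both genes replicate 4 was the highest library of either group.

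Transporters of the Major Facilitator Superfamily (MFS), which move sugars, organic anions and other small solutes, were called higher for 6 of 29 members and lower for 1. Over all genes tested 1.01% were called higher. The 6 called higher are those that the study itself had called with PBO, and none of the 23 others was called higher. The list as a whole had a median log2 fold change of 0.22, and the 23 others had one of 0.15. With unsprayed mites as the control 12 of the 29 were called higher and none lower. Those that rose included tetur01g06600, from 10.1 ± 1.60 to 21.0 ± 1.70 CPM (log2 fold change 1.06 ± 0.15, adjusted p = 0.000102), and tetur40g00030, from 15.4 ± 3.38 to 32.9 ± 5.41 CPM (1.10 ± 0.20). The single fall, of tetur13g03400, had overlapping groups (42.0 to 88.7 against 26.0 to 49.3 CPM, adjusted p = 0.0498) and was lost without any one of 6 libraries, namely PBO replicates 1, 3 and 4 and FORM replicates 1, 2 and 4. It was also lost with no filter on low counts, in a fit of the 8 libraries alone and against unsprayed mites (adjusted p = 0.131). None of 3 class C ABC transporter genes was called, at log2 fold changes of 0.26 to 0.57. Of the 2 genes given as orthologs of *Drosophila* CncC, a transcription factor that switches on detoxification genes in that fly, tetur07g06850 had a log2 fold change of 0.21 ± 0.07 (adjusted p = 0.0621) and tetur07g04600 of -0.05 ± 0.09 (adjusted p = 0.773).

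Cysteine peptidase genes rose in part. Cathepsins and legumains are cysteine peptidases that spider mites use to digest plant protein. In the list of 10 cysteine peptidases 5 were called higher and none lower, with a median log2 fold change of 0.92. The study itself had called 5 of the 10 with PBO, of which 4 were called here, as was 1 of the 5 others. Cathepsin B (tetur28g01430) went from 72.2, 82.5, 72.6 and 84.3 CPM to 135, 127, 127 and 162 CPM (log2 fold change 0.82 ± 0.13, adjusted p = 0.000571), and cathepsin L (tetur16g03680) from 3.24 ± 0.55 to 7.32 ± 1.29 CPM (1.16 ± 0.15).

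The cysteine peptidase tetur31g00690 had the highest fold of the group. It was at 0.460, 0.577, 0.205 and 0.768 CPM with formulation and at 3.74, 3.39, 3.42 and 2.92 CPM with PBO, so every PBO library was well above every FORM library (log2 fold change 2.73 ± 0.34, adjusted p = 4.05e-05). DEF-treated mites held 1.09 ± 0.22 CPM, and PBO exceeded DEF by 1.61 on the log2 scale (adjusted p = 0.00834). Legumain (tetur16g03670, adjusted p = 0.0182) was not called without FORM replicate 2 or FORM replicate 3, and tetur06g03520 (adjusted p = 0.0445) not without any one of PBO replicates 2, 3 and 4 and FORM replicates 1, 2 and 3, so that 3 of the 10 were called without either FORM replicate 2 or 3. The call for tetur06g03520 was also lost with no filter on low counts, in a fit of the 8 libraries alone and against unsprayed mites (adjusted p = 0.082).

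Listed genes of the cuticle, the chitin-bearing outer layer, mostly rose, with 1 library standing back. Of 9 listed genes 8 were called higher and 1 lower, with a median log2 fold change of 1.20. The study itself had called all 9 with PBO in these libraries, so calls for most of them were built into the list. For the cuticle protein gene tetur04g01610 the FORM libraries held 24.0, 14.7, 13.7 and 17.3 CPM and the PBO libraries 48.1, 57.0, 42.8 and 24.9 CPM (log2 fold change 1.31 ± 0.31, adjusted p = 0.0139). PBO replicate 4 was close to the highest FORM library, and it was the lowest PBO library for all 6 cuticle protein genes of the list. Averaged over the 9 genes, PBO replicates 1 to 3 lay 0.88 to 1.15 above the FORM mean on a log2 scale and PBO replicate 4 lay 0.34 above it. Without PBO replicate 2, FORM replicate 2 or FORM replicate 3, 5 of the genes were called higher. With unsprayed mites as the control 5 were called as well, and tetur04g01610 was not (log2 fold change 0.86, adjusted p = 0.0553), nor were the cuticle protein genes tetur04g01580 (adjusted p = 0.0562) and tetur01g12820 (adjusted p = 0.0774).

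The other genes of the list varied less between libraries. The gene for the chitin-binding peritrophin-A domain protein tetur38g00060 was at 10.8, 10.7, 10.8 and 12.6 CPM with formulation and 19.6, 20.1, 18.2 and 17.7 CPM with PBO (log2 fold change 0.76 ± 0.11, adjusted p = 0.000109). Dopa decarboxylase (tetur22g00750), which makes the dopamine used to harden and tan cuticle, went from 52.0 ± 4.79 to 86.9 ± 5.44 CPM. The single gene that fell was a chitinase, tetur23g02160, an enzyme that cuts chitin. It stood at 4.50 to 5.46 CPM in FORM and 2.37 to 2.77 CPM in PBO (adjusted p = 0.0302), and the adjusted p lay between 0.0508 and 0.0772 whichever of the 8 libraries was left out. With limma-voom it was not called.

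Secreted and salivary proteins, some of which mites inject while feeding, were called higher for 6 of 12 genes. The study itself had called 5 of the 12 with PBO, and all 5 were called here, against 1 of the 7 others. The cysteine-rich secretory protein gene tetur01g12220 went from 51.0 to 73.7 CPM in FORM to 96.0 to 118 CPM in PBO (log2 fold change 0.78 ± 0.13, adjusted p = 0.000581). Without FORM replicate 1 or FORM replicate 3, 3 of the 12 were called. For the orphan secreted protein tetur13g00990, called higher with PBO at 52.4 ± 6.71 against 34.2 ± 4.50 CPM, unsprayed mites held 63.8 CPM, so that the log2 fold change against them was -0.28 (adjusted p = 0.213). Its call against FORM was lost without any one of PBO replicates 1 and 3 and FORM replicates 1 and 4, and it was picked out after its values were seen. That gene was 1 of only 3 (0.0236% of the genes tested) called between formulation and no spray.

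**Figure D4:**
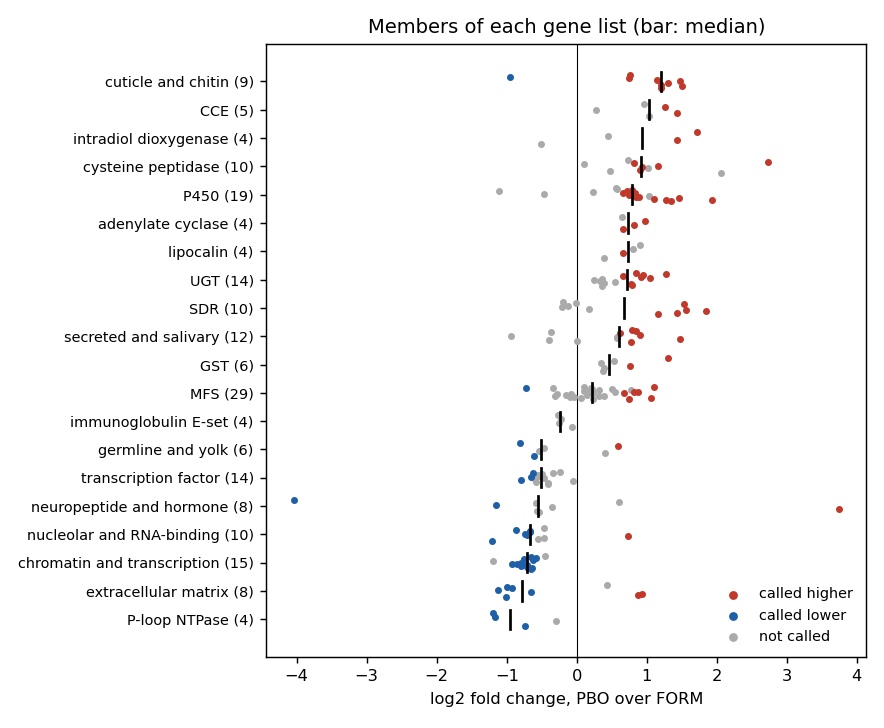
Log2 fold change of PBO over FORM (horizontal axis) for the members of 20 gene lists, 1 dot per gene, with the number of members in brackets and a bar at the list median. Medians ran from 1.20 for cuticle and chitin genes to -0.96 for P-loop NTPase genes, while the median of all genes tested was 0.000766. The study itself had called all 9 cuticle and chitin genes and 3 of the 4 P-loop NTPase genes with PBO, so these medians partly reflect how the lists were drawn.

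Most listed genes for proteins of chromatin and the transcription machinery were called lower with PBO. Of 15 listed genes 12 were called lower and none higher, with a median log2 fold change of -0.72. For all 15 the PBO libraries lay wholly below the FORM libraries, as they did for 1195 of the 12736 genes tested. The study itself had called 11 of the 15 with PBO, and 9 of those 11 were called lower here, so the list was not independent of the direction. The count was sensitive to single libraries, with 6 called without PBO replicate 1, 7 without FORM replicate 2 and at most 10 without any other. The plot of chromatin gene levels shows the shift gene by gene.

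The homolog of CTR9 (tetur06g05270), a subunit of the Paf1 complex that travels with RNA polymerase II, varied little within the groups. It measured 65.6, 65.6, 63.6 and 65.6 CPM with formulation and 37.1, 42.3, 39.2 and 40.02 CPM with PBO. The log2 fold change was -0.72 ± 0.14 (adjusted p = 0.00383). The Mediator subunit gene Med1 (tetur26g02090) went from 51.4 ± 1.53 to 32.7 ± 1.46 CPM (-0.65 ± 0.13), and ARID4B (tetur20g01640) from 95.1 ± 4.69 to 61.7 ± 2.10 CPM (-0.63 ± 0.13).

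SMC2 (tetur25g00820), a core subunit of the condensin complex that compacts chromosomes, was at 9.60, 9.93, 9.07 and 8.87 CPM in FORM and 5.58, 5.66, 5.35 and 5.71 CPM in PBO (log2 fold change -0.75 ± 0.16, adjusted p = 0.00516). It was also lower with PBO than with DEF in the direct test (log2 difference -0.64, adjusted p = 0.0463). The gene for nejire (tetur07g03900), the fly name of the histone acetyltransferase CBP, fell the most among the called members, from 39.1 ± 3.04 to 20.6 ± 1.40 CPM (-0.92 ± 0.24, adjusted p = 0.0212). Without PBO replicate 1 or PBO replicate 3 its adjusted p was 0.0569 to 0.0600. The 3 members not called were an MLL2-like gene (tetur17g01650, adjusted p = 0.0573), a P400-like gene (tetur38g00040, adjusted p = 0.0612) and an FY-rich domain gene (tetur17g01640, adjusted p = 0.0796).

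Diethyl maleate (DEM), a glutathione-depleting synergist tested in the same series, was compared with PBO directly for these genes. Nejire was at 78.2 ± 10.4 CPM and CTR9 at 84.8 ± 5.59 CPM in DEM-treated mites (SD, n = 4). Both levels were above those with formulation, so the gap between PBO and DEM is wider than that between PBO and FORM. In the direct test of PBO against DEM all 15 chromatin genes were lower with PBO, where 8.58% of all genes tested were. Against DEF 1 of the 15 was lower with PBO and none was higher, where 13 of the 12736 genes tested were lower.

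**Figure D5:**
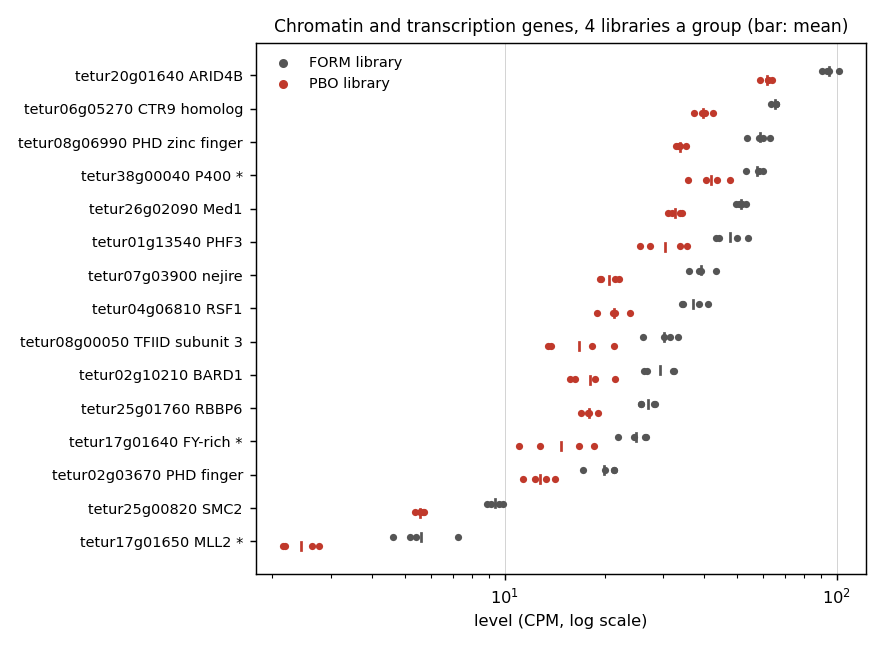
Level of the 15 chromatin and transcription genes in CPM (horizontal log axis), 1 dot per library, FORM in grey and PBO in red, with a bar at each group mean and an asterisk on the 3 genes not called. In each row the 4 PBO dots lie left of the 4 FORM dots, as for CTR9 at 37.1 to 42.3 CPM against 63.6 to 65.6 CPM.

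Most listed genes for nucleolar and RNA-binding proteins and for P-loop NTPases were also called lower. Of 10 nucleolar and RNA-binding genes 6 were called lower and 1 higher, with 3 lower without FORM replicate 2. Over all genes tested 1.59% were called lower. The 6 called lower are those that the study itself had called with PBO, and none of the 4 others was called lower. The split therefore follows how the list was drawn. The nucleolar protein gene p130 (tetur03g06070) measured 20.6, 24.5, 22.6 and 23.5 CPM in FORM and 8.64, 9.17, 10.59 and 11.04 CPM in PBO (log2 fold change -1.21 ± 0.28, adjusted p = 0.0127). Nucleolin (tetur10g00150), an abundant nucleolar protein of ribosome assembly, went from 26.8 ± 1.33 to 16.4 ± 0.78 CPM (adjusted p = 0.0184) but had an adjusted p of 0.0546 without PBO replicate 3. The exception was the gene for RNA-binding protein 40 (tetur07g00310), at 1.43 ± 0.28 against 2.36 ± 0.31 CPM (adjusted p = 0.0316), which was lost without any one of PBO replicates 1 and 4 and FORM replicates 1, 2 and 4, and against unsprayed mites (adjusted p = 0.202).

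Of 4 P-loop NTPase genes, whose products hydrolyse nucleotides, 3 were called lower. These 3 are the members that the study itself had called with PBO. The gene tetur37g00490 fell from 30.2, 37.9, 35.3 and 40.1 CPM to 14.2, 13.4, 17.6 and 17.2 CPM (log2 fold change -1.20 ± 0.27, adjusted p = 0.00961). The gene tetur37g00420, on the same scaffold, fell from 22.7 ± 1.78 to 10.1 ± 1.35 CPM (-1.17 ± 0.23, adjusted p = 0.00417).

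Transcription factor genes were called lower for 3 of 14 members and higher for none. The 2 members that the study itself had called with PBO were called lower, as was 1 of the 12 others. The number called lower was 6 without PBO replicate 1 and 5 without PBO replicate 2. Kr-2 (tetur08g05590), an ortholog of a *Drosophila* gene, was the steadiest, at 57.7, 57.5, 60.3 and 55.4 CPM in FORM and 35.9, 36.9, 37.4 and 36.0 CPM in PBO (log2 fold change -0.66 ± 0.08, adjusted p = 4.6e-05). A C2H2-like zinc finger gene, tetur03g04660, went from 35.8 ± 3.75 to 20.7 ± 2.26 CPM. NeuroD1 (tetur25g00460), at 8.26 ± 0.65 against 5.35 ± 0.83 CPM, dropped under the 1.5-fold limit without PBO replicate 3 or 4.

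Extracellular matrix genes split in direction, with 5 of 8 called lower and 2 higher. The study itself had called 7 of the 8 with PBO, and all 7 were called here. The transglutaminase gene tetur09g05660, for an enzyme that cross-links proteins, was at 460, 453, 500 and 522 CPM with formulation and 306, 360, 310 and 259 CPM with PBO. The log2 fold change of -0.65 ± 0.09 (adjusted p = 0.000109) became -0.57 without PBO replicate 4, under the 1.5-fold limit. A cell adhesion molecule gene, tetur21g02250, fell from 8.77 ± 0.79 to 4.60 ± 0.84 CPM (-0.93 ± 0.18, adjusted p = 0.002).

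The collagen alpha-1 gene tetur15g00790 (adjusted p = 0.042) was lost without any 1 of the 8 libraries, with limma-voom and with no filter on low counts, and the fibrillar collagen tetur28g00630 (adjusted p = 0.0162) without PBO replicate 1, where the adjusted p was 0.0581. The 2 genes that rose, spondin-1 (tetur05g06950) at 3.98 ± 1.12 against 7.60 ± 1.15 CPM and the fibronectin type III-like gene tetur03g04460 at 31.0 ± 7.84 against 56.9 ± 10.7 CPM, were lost without 3 and 6 of the libraries. Counted over the list, 3 were lower with limma-voom, 2 without PBO replicate 1 and 3 without any one of PBO replicates 2, 3 and 4 and FORM replicates 2 and 3. None was higher without PBO replicate 1, FORM replicate 1 or FORM replicate 3, and 1 was higher without PBO replicate 3, PBO replicate 4 or FORM replicate 2.

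Genes of eggs and the germline gave a mixed picture. The vasa gene tetur10g01960 stood at 164, 143, 139 and 157 CPM in FORM and 107, 120, 100 and 87.1 CPM in PBO. The groups did not overlap and the adjusted p was 0.000236, but the log2 fold change of -0.54 ± 0.08 lay under the 1.5-fold limit, as did that of the other vasa gene, tetur10g01980 (-0.47 ± 0.08, adjusted p = 0.000462). A gene for a Cutoff-like protein, named after a fly protein of the germline piRNA pathway, was called lower (tetur21g03230, 18.5 ± 2.08 against 10.5 ± 1.20 CPM, adjusted p = 0.000487).

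The homolog of a zygote-specific protein, tetur01g11850, was at 696 to 807 CPM in FORM and 412 to 569 CPM in PBO (log2 fold change -0.61 ± 0.16, adjusted p = 0.0211) and was lost without PBO replicate 4 or FORM replicate 3, so that 1 gene of the list was then lower. Against unsprayed mites its log2 fold change was -0.33 (adjusted p = 0.161), 1 gene of the list was lower and 2 were higher. The vitellogenin tetur20g01230 was called higher, at 103, 94.2, 87.4 and 116 CPM against 169, 152, 155 and 130 CPM (0.59 ± 0.18, adjusted p = 0.0434). This call was lost without any one of PBO replicates 1 to 3 and FORM replicates 1 to 3, at adjusted p values of 0.0778 to 0.129, with no filter on low counts and with a minimum of 10 counts in every library. A vitellogenin fused with superoxide dismutase, tetur07g05480, was at 814 ± 89.8 against 1077 ± 99.5 CPM (adjusted p = 0.0829).

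Genes for neuropeptides and hormones, short signals released by nerve cells, included the extremes of all lists, both at very low counts. A neuropeptide F precursor gene, tetur26g01200, had 13 to 31 reads in each FORM library and 1 or 2 in each PBO library, that is 1.55, 1.79, 1.30 and 0.908 CPM against 0.0613, 0.0616, 0.125 and 0.0634 CPM (log2 fold change -4.04 ± 0.56, adjusted p = 0.000102). A pancreatic hormone-like gene, tetur04g09491, had 3 reads in all over the FORM libraries and 47 over the PBO libraries (3.75 ± 0.67, adjusted p = 0.00118). The direction was the same in every library of both genes, but the size of either fold rests on a handful of reads.

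The neuropeptide precursor gene tetur10g02210 was at 76.0, 76.8, 88.1 and 87.7 CPM with formulation and 55.0, 57.8, 55.0 and 52.0 CPM with PBO. Its adjusted p was 0.000109, but its log2 fold change of -0.58 ± 0.08 fell just short of the 1.5-fold limit, so it was not called. Besides tetur26g01200, the member called lower was tetur10g02190 (adjusted p = 0.0316), which was lost without any 1 of the PBO libraries or FORM replicates 1 and 2. Over the list of 8, 2 were lower, and 1 without PBO replicate 3 or 4 or with limma-voom, which did not call tetur10g02190.

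Smaller lists held fewer calls. Adenylate cyclases, which make the messenger cyclic AMP, were called higher for 3 of 4 members, led by tetur16g03200 (5.54 ± 0.72 against 10.8 ± 2.37 CPM, adjusted p = 0.000581), with 1 called without PBO replicate 4. A lipase gene, tetur10g00740, rose from 1.04 ± 0.31 to 2.73 ± 0.13 CPM (log2 fold change 1.39 ± 0.31, adjusted p = 0.00713), and 2 genes of that list were called with DESeq2, with limma-voom or in a fit of the 8 libraries alone. The chemosensory receptor gene IR25A (tetur30g01550) fell from 4.06 ± 0.53 to 2.05 ± 0.18 CPM (-0.98 ± 0.18, adjusted p = 0.00162), and 2 genes of the chemosensory list were lower with unsprayed mites as the control. Of 4 apolipoprotein D genes of the lipocalin family, carriers of small lipophilic molecules, tetur06g03090 was called higher (adjusted p = 0.0289) and was lost without any one of PBO replicates 3 and 4 and FORM replicates 1 and 2, and against unsprayed mites (log2 fold change 0.53), while 2 were called with limma-voom and 3 in a fit of the 8 libraries alone. No member of the immunoglobulin E-set list was called among 4.

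Genes outside the lists changed as well. The gene for the mitochondrial midA homolog, tetur09g06670, in other species an assembly factor of respiratory complex I, fell by the largest fold among called genes with a FORM mean over 100 CPM. It stood at 1935, 1520, 1671 and 1936 CPM with formulation and 801, 907, 626 and 490 CPM with PBO, with no overlap (log2 fold change -1.32 ± 0.18, adjusted p = 0.000115). It was at 577 CPM in DEF-treated and 1418 CPM in unsprayed mites.

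Among genes singled out after their values were seen, the hypothetical protein gene tetur25g00520 fell from 1564 ± 154 to 828 ± 93.1 CPM (-0.92 ± 0.13, adjusted p = 0.000109). The gene tetur22g01530, described as lethal, rose from 51.2, 50.7, 58.7 and 64.5 CPM to 130, 170, 128 and 121 CPM (1.29 ± 0.14, adjusted p = 1.53e-05). The gene tetur03g09300 had the highest level of any called gene, at 35438 to 47142 CPM in FORM and 22121 to 29831 CPM in PBO (adjusted p = 0.0288), and was lost without any one of PBO replicates 1, 3 and 4 and FORM replicates 1, 2 and 4, and against unsprayed mites (log2 fold change -0.35, adjusted p = 0.148).

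Hypothetical protein genes were named on both sides. Among the 15 genes with the largest rise by the naming rule, tetur11g05020 went from 5.23, 5.19, 5.05 and 8.66 CPM to 18.1, 14.3, 16.3 and 26.3 CPM (log2 fold change 1.64 ± 0.25, adjusted p = 0.000336). Its neighbour by ID tetur11g05010 went from 4.70 ± 1.01 to 13.4 ± 3.65 CPM, and tetur45g00140, tetur08g04180 and tetur06g04510 rose at 1.51 ± 0.20, 1.48 ± 0.28 and 1.46 ± 0.27. For the first 2 genes replicate 4 was the highest library of either group.

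On the falling side the hypothetical protein genes tetur19g00680, tetur06g00880 and tetur02g04810 had log2 fold changes of -1.48 ± 0.42, -1.38 ± 0.23 and -1.34 ± 0.22. The first of these was lost whichever library was left out, with an adjusted p of up to 0.0948, and also with limma-voom or no filter on low counts. Further genes were an Apple-like domain gene, tetur30g00710 (3.07 ± 0.36 against 1.38 ± 0.23 CPM), a cystine-knot cytokine gene, tetur01g14780 (5.27 ± 0.92 against 2.66 ± 0.64 CPM), and a 2-ketogluconate reductase gene, tetur08g02870 (4.35 ± 0.57 against 2.20 ± 0.50 CPM). The study's tables hold no description for 39 of the genes that rose and 115 of those that fell.

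The remaining runs of neighbouring IDs consisted of such genes. On scaffold 30, tetur30g01790 rose from 41.7 ± 4.33 to 105 ± 43.5 CPM and tetur30g01810 from 20.8 ± 2.43 to 53.2 ± 20.7 CPM, with PBO libraries at 45.3, 30.4, 58.0 and 79.3 CPM for the latter. The gene between them, tetur30g01800 (log2 fold change 0.61), dropped under the 1.5-fold limit without any one of PBO replicates 1, 3 and 4 and FORM replicates 1 and 2. On scaffold 10, the run that fell, tetur10g05230, tetur10g05240 and tetur10g05250 had log2 fold changes of -1.12, -0.91 and -1.06, from 1.90 to 2.73 CPM in FORM to 1.01 to 1.29 CPM in PBO. Against unsprayed mites tetur10g05230 was at -0.52 (adjusted p = 0.0694) and was not called, which leaves fewer than 3 called genes in that run.

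Direct comparison with DEF, the esterase inhibitor applied in the same formulation, separated few genes. PBO and DEF differed in 37 genes, 0.291% of those tested, and 8 of the 332 genes called against FORM were among them. Besides the SDR gene tetur06g04970, the mu-class GST tetur05g05190, SMC2 (tetur25g00820) and the cysteine peptidase tetur31g00690 described above, these included the MFS gene tetur01g06580. It was at 6.96, 7.10, 8.32 and 7.96 CPM in FORM, 13.6, 13.4, 13.8 and 10.1 CPM in PBO, and 20.3 ± 1.64 CPM with DEF, so that PBO was higher than FORM (log2 fold change 0.75 ± 0.11, adjusted p = 0.000109) and lower than DEF (-0.67, adjusted p = 0.00212). CYP392A11 (tetur03g00970), with 1570 ± 87.6 CPM in DEF-treated mites, was not among them (log2 difference 0.16, adjusted p = 0.517). For CYP392E8 (tetur27g00350) the direct difference was 0.38 (adjusted p = 0.0291), under the 1.5-fold limit.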

How the data were processed

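RNA-seq reads of 24 libraries, 4 in each of 6 groups, were mapped by the authors with STAR 2.5.0a and counted per gene with HTSeq 0.6.0. The deposited table holds raw counts, not normalized, for 19087 genes. The strand setting used in counting could not be checked from the table, so overlapping and antisense genes are uncertain, as are near-identical copies.

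Here counts were scaled by TMM, filtered with filterByExpr and fitted with edgeR 4.0.16 in R 4.3.3 (quasi-likelihood test, robust estimation, all 24 libraries, no covariate), with Benjamini-Hochberg adjustment over 12736 genes. CPM and log2 fold changes were computed from the deposited counts. The SE is the log2 fold change divided by the square root of the F statistic. Replicates were separate RNA extractions, reported by the study as biological replication. It does not say whether the extractions of a group came from separate sprayings. The p-values measure the spread between extractions within groups, estimated over all 24 libraries. No pair was a duplicate (chi-square per degree of freedom at least 4.36). The test was also tried on simulated counts drawn from the spread fitted to these data. The changes put in were larger than most of those called here and left out weakly expressed genes, so the trial does not cover those cases.

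The genes named were the 15 highest and 15 lowest fold changes among called genes with non-overlapping groups and at least 3 CPM in the higher group, called members of the enzyme, transporter and peptidase lists, the 4 called members with the lowest p of each other list, members of runs, uncalled detoxification genes and CncC orthologs. Another 35 genes were added after their values were seen. Lists and members were chosen with earlier results of these data known. Alternatives were DESeq2 1.42.0, limma-voom (limma 3.58.1), other size factors and filters, only 8 libraries, a replicate block, other thresholds, unsprayed mites as control, each library left out, and no robust estimation, which was added after seeing the data.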

Additional observations from a re-analysis of the deposited data

Results flagged for a closer look

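In 398 groups of 4 libraries, made of the named genes in FORM and in PBO, 1 library stood far from the other 3 in 25 cases by Dixon's criterion. Chance alone gives about 1 in 20 groups. FORM replicate 1 stood apart for tetur22g00480 at 2.76 CPM (others 1.774 to 1.847). FORM replicate 3 stood apart for tetur06g05270 at 63.65 CPM (others 65.55 to 65.65), tetur11g05110 at 0.8868 CPM (others 1.385 to 1.437), tetur184g00040 at 9.141 CPM (others 10.56 to 10.76) and tetur45g00140 at 1.433 CPM (others 1.092 to 1.117). FORM replicate 4 stood apart for tetur02g09850 at 204.3 CPM (others 162.6 to 168.2), tetur02g14540 at 14.74 CPM (others 9.291 to 10.03), tetur04g06770 at 16.97 CPM (others 6.611 to 7.572), tetur11g05020 at 8.66 CPM (others 5.048 to 5.232), tetur23g01600 at 50.49 CPM (others 38.2 to 40.07), tetur30g01750 at 2.305 CPM (others 0.955 to 1.154) and tetur38g00060 at 12.57 CPM (others 10.68 to 10.85). PBO replicate 2 stood apart for tetur01g10820 at 33.5 CPM (others 25.19 to 26.4), tetur02g07750 at 144.8 CPM (others 155.5 to 156.7) and tetur28g01140 at 101 CPM (others 126.1 to 129.7). PBO replicate 3 stood apart for tetur01g14780 at 3.611 CPM (others 2.268 to 2.401), tetur03g05020 at 39.85 CPM (others 19.95 to 23.09), tetur05g05190 at 172.6 CPM (others 175.5 to 176), tetur06g04890 at 4.67 CPM (others 0.2463 to 0.6129), tetur22g00510 at 2.615 CPM (others 3.555 to 3.678) and tetur26g01200 at 0.1245 CPM (others 0.06129 to 0.06342). PBO replicate 4 stood apart for tetur01g06580 at 10.08 CPM (others 13.42 to 13.76), tetur02g04810 at 1.903 CPM (others 1.165 to 1.245), tetur04g06770 at 26.32 CPM (others 21.67 to 21.7) and tetur11g05770 at 17.76 CPM (others 15.01 to 15.39).

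The carboxyl/cholinesterase gene tetur04g06770 was the only one with a library apart in both groups, replicate 4 being the highest in each. Its groups still did not overlap.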

How the results depend on the processing

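The count of 332 called genes (129 higher, 203 lower) stayed within 1.5 times under DESeq2 (358, of which 308 shared; 6 called genes had no DESeq2 adjusted p), limma-voom (324), DESeq2 size factors in edgeR (343), a minimum of 10 counts in every library (284), no filter at all (295), only the 8 PBO and FORM libraries (353) and no robust estimation (337). It moved to 1119 (470 higher, 649 lower) with the adjusted p alone, to 19 (16 higher, 3 lower) with a test against a fold change of 1.5, and to 771 (332 higher, 439 lower) with unsprayed mites in place of FORM, of which 269 were shared. Leaving out single libraries gave 212 to 286 genes, 88 to 135 higher and 113 to 177 lower; without PBO replicate 1 the counts were 212, 99 and 113. The deviations of same-numbered PBO and FORM libraries correlated at 0.14, -0.085, 0.14 and -0.17, and only replicates 1 correlated best with each other from both sides. The labels do not say whether replicate numbers pair the samples, and these correlations cannot settle it. With the replicate block 361 genes were called (143 higher, 218 lower). The median log2 fold change of all genes lay between -0.02 and 0.0044 over the alternatives.

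Of 123 called genes named, 18 kept their call in each of the 19 alternatives that gave them a value, 4 of them with no value in 1 or more. A total of 76 kept it in all but possibly the test against a fold change of 1.5, and 47 lost it or turned in at least 1 other, 16 of them with unsprayed mites as control; the cause was not tested. The called gene tetur13g00990 turned against unsprayed mites (-0.282), and the other named genes that turned were not called. With unsprayed mites as control these were tetur04g02440 (0.0732), tetur05g04460 (-0.116), tetur05g05720 (0.267), tetur06g05110 (0.0162), tetur07g04600 (0.0225), tetur07g06460 (0.0663), tetur08g06870 (-0.0079), tetur08g06890 (-1e-04), tetur20g01790 (-0.242) and tetur24g00270 (-0.0385). With 1 library left out in turn, log2 fold changes spanned 0 for tetur01g08670 (-0.174 to 0.22), tetur05g04460 (-0.0511 to 0.356), tetur05g05720 (-0.225 to 0.103), tetur19g01060 (-0.017 to 0.214), tetur24g00270 (-0.0792 to 0.203) and tetur28g01720 (-0.0753 to 0.0198). Depth limits the genes under 1 CPM, which rest on few reads a library.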

Other observations

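Some genes with large fold changes were not called, and those given here were chosen after their values were seen. The gene tetur06g04890, with no description, was at 0.0575, 18.5, 0.750 and 16.8 CPM in the FORM libraries and 0.613, 0.246, 4.67 and 0.507 CPM in the PBO libraries (log2 fold change -2.57 ± 1.28, adjusted p = 0.224). The gene tetur16g01680 was at 0.575 to 1.56 CPM in FORM and 1.68 to 8.07 CPM in PBO, with no overlap (2.14 ± 0.74, adjusted p = 0.0748). The gene tetur30g01750 was at 0.955 to 2.30 CPM in FORM and 1.17 to 9.01 CPM in PBO (1.83 ± 0.58, adjusted p = 0.0531), and was called without PBO replicate 2 (2.16, adjusted p = 0.0177).

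The most abundant gene of the libraries, tetur39g00810, with no description, was at 51817 to 59712 CPM in FORM and 37124 to 55625 CPM in PBO (log2 fold change -0.24 ± 0.16, adjusted p = 0.385), PBO replicate 4 being the lowest.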
